A study of Mus musculus with 44 samples.

Results

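Back skin of 6 mice that had been left without bleomycin for 6 weeks was compared with back skin of 10 mice injected with saline, 16 of the 44 mice of the series. The mice were chosen by their treatment label alone, and no measured value was used. RNA of the biopsies was sequenced in a mouse model of systemic sclerosis, and the comparison asks what stayed changed once the injections had ended. All mice were WT C57Bl/6 females, given as 8 weeks old at injection, and the bleomycin groups received 100 µL at 1 U/mL under the back skin every day, 1 biopsy being sequenced from each mouse. The mice of the 6-week group had been injected for 4 weeks before recovery, as in the group with 10 weeks of recovery (8 mice), and 2 more groups of 10 mice each were killed after 2 or 4 weeks of injections. The age at which the saline mice were killed is not given in the sources used here, so age at harvest and bleomycin history cannot be told apart wherever the 2 groups differed in age.

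Bleomycin is an antitumour antibiotic that cuts DNA strands, and repeated injection leads to inflammation, loss of hair growth and thickening of the dermis in mice. Dermal fibroblasts secrete collagens and the smaller proteins that space, bind and crosslink the collagen bundles. Cells that survive DNA damage can enter senescence, a lasting exit from the cell cycle that is enforced by inhibitors of cyclin-dependent kinases and accompanied by secretion of proteases and protease inhibitors.

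Gene positions are those of GENCODE M21 (GRCm38). Each value below is a normalized count: the reads of a gene divided by one size factor per mouse. For a group the lowest, the median and the highest mouse are given in that order. Differences are log2 fold changes of 6 weeks of recovery over saline on log2(normalized count + 1), with a standard error (SE), and they understate the change of genes with few reads. A gene was called when its fold change was above 1.5 and its Benjamini-Hochberg adjusted p (limma, all tested genes) was below 0.05. Between 8641894 and 12016214 reads were counted on genes in the saline mice and between 11019337 and 15285577 in the recovery mice, and 3 reads, the floor used here, corresponded to 2.19 to 3.86 normalized counts. No 2 mice of a group agreed within sampling noise.

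Of 17037 genes tested, 859 (5.04%) were called, 567 (3.33%) higher and 292 (1.71%) lower than with saline. The median log2 fold change over all tested genes was -0.0023. The 6 recovery values lay wholly above or wholly below the 10 saline values in 213 of the called genes (1.25% of those tested), 184 higher (1.08%) and 29 lower (0.17%); counting genes that were not called, 332 (1.95%) did not overlap. Set beside this, 3053 genes (17.9%; 10.5% higher, 7.37% lower) were called at 4 weeks of bleomycin and 519 (3.05%) at 10 weeks of recovery, in comparisons that share the same saline mice. In the direct contrast with the end of the injections, 2035 genes (11.9%) were called, of which 818 (4.8%) were higher and 1217 (7.14%) lower in the recovered skin, whereas 15 genes (0.088%) differed between 6 and 10 weeks of recovery.

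The labelled tissue carried its markers. Krt14, a keratin of basal epidermal cells chosen as a tissue check after its values were seen, lay at 26455, 34002 and 45029 with saline and at 27893, 37950 and 40523 in recovery. The biopsies also held striated muscle, since the mean log2 level of 22 fast-twitch muscle genes was 11.3 to 12.9 with saline and 12.5 to 13.2 in recovery. The mean log2 level of 14 hair shaft keratins ran from 3.59 to 11.5 over the saline mice and from 1.74 to 10.1 over the recovery mice. Saline mouse 1 correlated least with its group (median r = 0.942), and had the highest hair keratins and the lowest fast-twitch level; 661 genes (3.88%) were called without it. Recovery mouse 5 had the lowest hair keratins and the highest muscle level of its group, and 504 genes (2.96%) were called without it. With the mean level of the slow- and fast-twitch muscle lists in each mouse as a covariate (the muscle covariate) 238 genes (1.4%) were called, with the level of fast-twitch genes alone 638 (3.74%) and with the hair keratin level 560 (3.29%). The part of hair and muscle content in the gene lists below was not tested beyond these fits. In bulk skin, fewer cells of a type and less RNA per cell cannot be told apart.

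**Figure D1:**
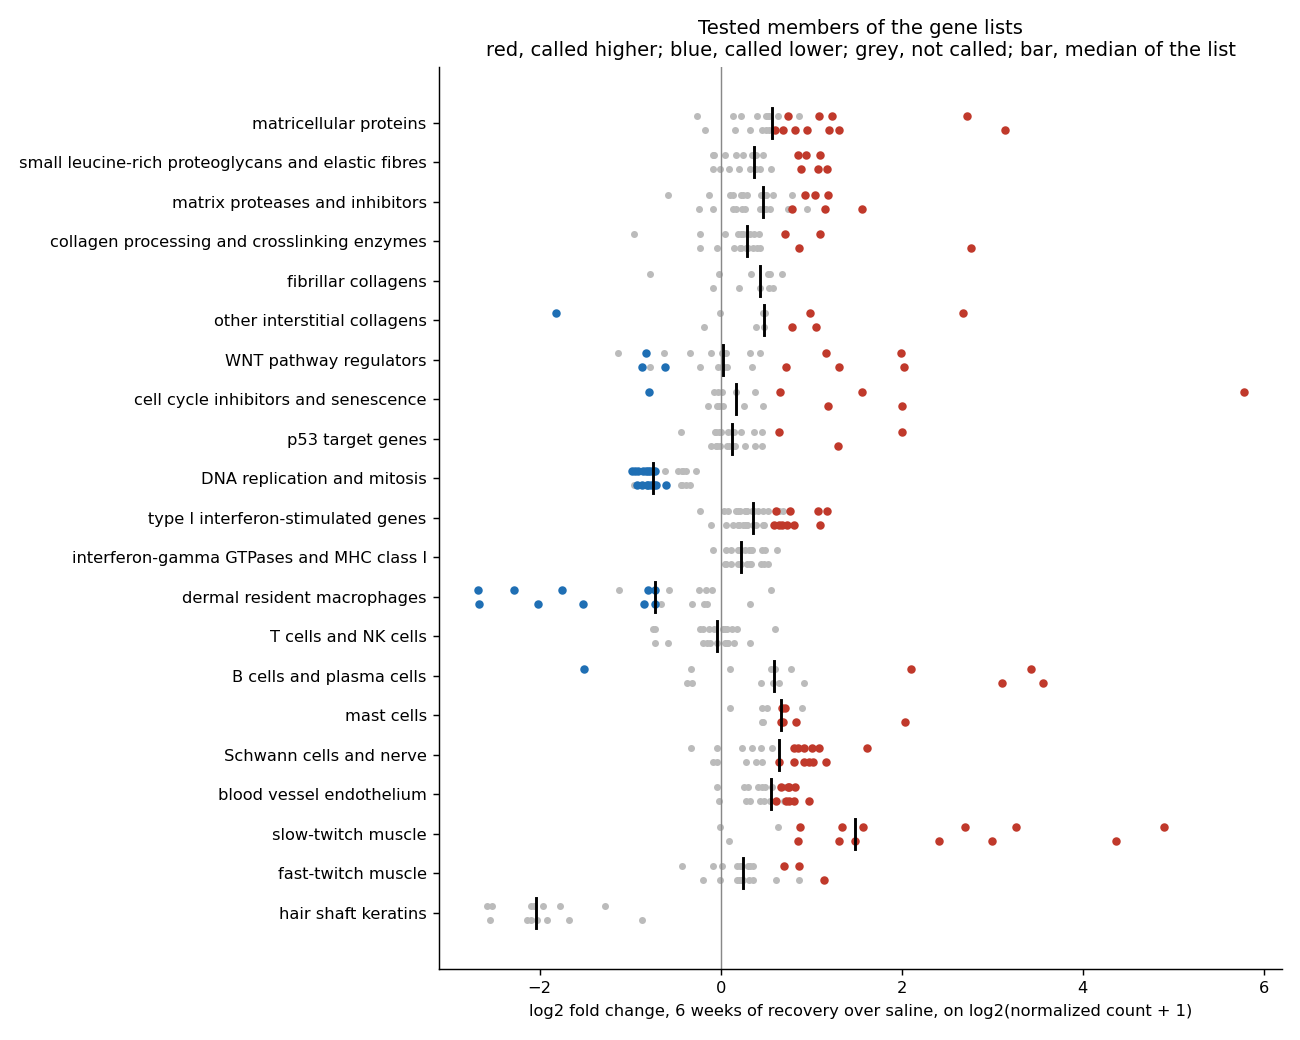
Each point is a tested gene of a list, placed by its log2 fold change of 6 weeks of recovery (6 mice) over saline (10 mice) on log2(normalized count + 1); red points were called higher, blue points lower and grey points were not called, and the black bar is the median of the list. Matricellular, Schwann cell, endothelial and slow-twitch genes lie mostly to the right of 0, resident macrophage and mitotic genes to the left, and hair keratins far to the left without a call.

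Part of the genes for secreted matrix proteins were higher at 6 weeks of recovery. Among 26 matricellular proteins, which sit in the matrix and modulate cell contact rather than bear load, 11 rose, 15 were not called and none fell (median log2 fold change 0.57, against -0.0023 over all genes). The 11 fibrillar collagens had a median of 0.43 with none called by limma or edgeR and 1 called lower by DESeq2. Without saline mouse 8 or saline mouse 10, limma called 1 of them higher. At an unadjusted p below 0.05, 4 were higher. The difference between the 2 lists was not tested. Col1a1 lay at 18893, 28540 and 57983 with saline and at 29613, 47073 and 62036 in recovery (log2 fold change 0.53, SE 0.27, adjusted p = 0.22). Col3a1 had a log2 fold change of 0.55 (SE 0.25) with an adjusted p of 0.161. These 2 genes, which encode chains of type I and type III collagen, were picked after their values were seen, and the groups overlapped in both. The members furthest from 0 were Col2a1 (0.68) and Col11a1 (-0.77), also not called.

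The largest matricellular change was that of Ccn3 (chr15:54745702-54754039), which encodes a secreted CCN protein. Its normalized counts were 81.1, 192 and 261 with saline and 1290.2, 1672 and 2045 in recovery, so that every recovery mouse stood above every saline mouse. The log2 fold change was 3.14 (SE 0.23) with an adjusted p of 1.11e-13. The rise came after the injections: the median was 227 at 4 weeks of bleomycin, and the direct difference of 6 weeks of recovery over 4 weeks of bleomycin was 2.90 (adjusted p = 2.16e-13). At 10 weeks of recovery the median was 842.

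Other CCN genes rose less. Ccn1 lay at 209, 289 and 349 with saline against 556, 641 and 769.9 (log2 fold change 1.20, SE 0.15, adjusted p = 2.06e-07), and Ccn2, the connective tissue growth factor induced by TGF-beta, at 394, 532 and 742 with saline against 1084, 1442 and 1646 (1.31, SE 0.16, adjusted p = 2.83e-07). In both genes the groups did not overlap, and the 4-week medians, 602 and 1331, lay beside those of the recovery mice (direct differences 0.15 and 0.15, neither called). Ccn5 followed Ccn3 in time, with 106, 285 and 473 under saline, a median of 262 at 4 weeks and 491, 595 and 822 in recovery (log2 fold change 1.23, SE 0.22, adjusted p = 0.000289).

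Cthrc1 (chr15:39076932-39087121), a collagen triple helix repeat protein secreted by activated fibroblasts, was 21.9, 54.2 and 83.5 with saline and 249.8, 331 and 401 in recovery, without overlap (log2 fold change 2.72, SE 0.30, adjusted p = 2.13e-08). It was higher at 6 weeks of recovery than in the skin still being injected (1.61, adjusted p = 6.73e-05) and higher than at 10 weeks of recovery (1.74, adjusted p = 0.0047). Fibronectin, Fn1, rose from 3247, 6434 and 7226 to 9146, 10452 and 11270 (0.82, SE 0.22, adjusted p = 0.0151). The osteopontin gene Spp1 was still above saline, at 87.4, 123 and 149 against 25.1, 61.7 and 88.9, although its 4-week median had been 678 and it had dropped by 2.55 on the log2 scale since then (adjusted p = 2.86e-14). The remaining members called were Matn2, Vtn, Sparcl1 and Sparc, with log2 fold changes of 0.60, 0.95, 0.75 and 0.69, and the call of Sparc was lost when any of 13 single mice was left out. With the muscle covariate 5 members were called.

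**Figure D2:**
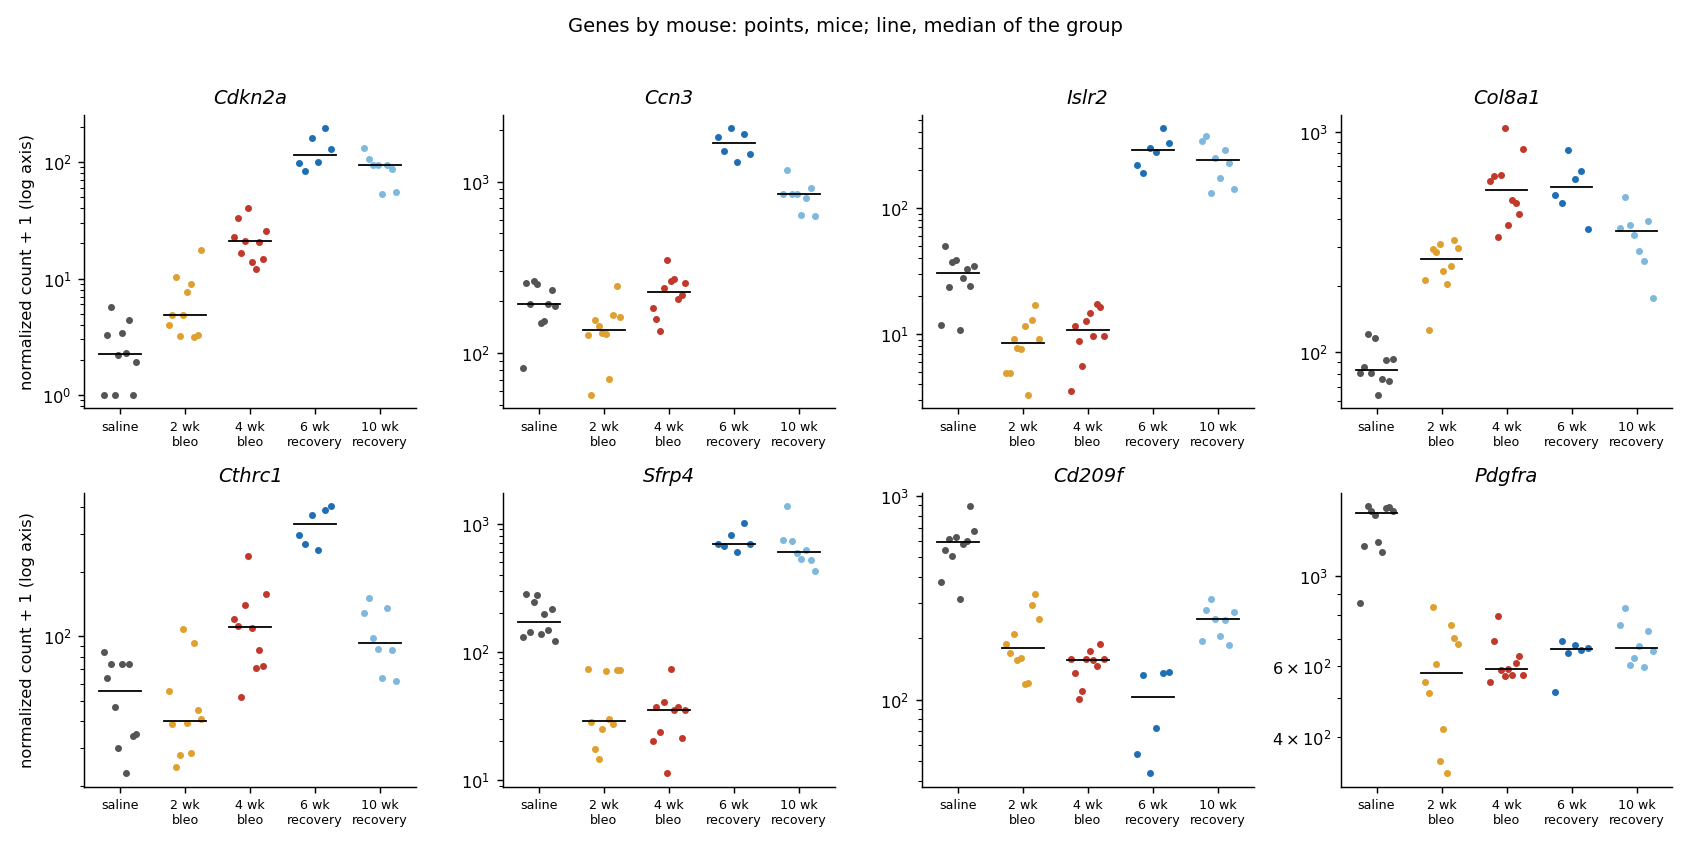
Normalized counts + 1 on a log axis for 8 genes in each of the 44 mice, by group; points are mice and lines are group medians. Cdkn2a, Ccn3, Islr2, Col8a1, Cthrc1 and Sfrp4 stand above all saline mice at 6 weeks of recovery and Cd209f and Pdgfra below them; Ccn3, Islr2 and Sfrp4 are low while bleomycin is being injected and high after it.

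Among 11 other interstitial collagens 4 rose and 1 fell (median 0.48), and with the muscle covariate 1 rose. Col8a1 (chr16:57624258-57754737), a short-chain collagen of vessel walls and repairing tissue, was 63.0, 82.2 and 119.7 with saline and 363, 562 and 823 in recovery (log2 fold change 2.68, SE 0.21, adjusted p = 1.21e-12). Its difference from the skin at 4 weeks of bleomycin was 0.015 (SE 0.21, adjusted p = 0.969). Col14a1, a fibril-associated collagen, was 716, 885 and 1362 with saline, had a lower median of 425 at 4 weeks, and reached 1573, 1879.9 and 2377 in recovery (1.05, SE 0.24, adjusted p = 0.00397). Col28a1 (0.99) and Col8a2 (0.78) also rose, and Col6a6 fell (-1.81, adjusted p = 0.02), its saline mice ranging from 2.42 to 43.8. Of 25 basement membrane genes, Hspg2 (perlecan) rose by 0.63, and the type IV collagen chains Col4a3 and Col4a4 fell (-1.07 and -0.93); the last of these was 72.7, 130.4 and 176 with saline and 58.5, 65.4 and 85.1 in recovery. The call of Hspg2 was lost without any of 7 single mice and with each of the 3 covariates, that of Col4a3 without recovery mouse 2, and that of Col6a6 without recovery mouse 5 or 6.

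Enzymes that modify and crosslink collagen had 4 of 24 members higher and none lower (median 0.29), and 2 higher with the muscle covariate. P4ha3 (chr7:100285520-100319699), a subunit of a prolyl 4-hydroxylase that hydroxylates collagen chains, was 2.38, 9.36 and 26.1 with saline and 50.0, 65.8 and 88.4 in recovery, without overlap (2.77, SE 0.36, adjusted p = 8.41e-07). Lox, a lysyl oxidase that starts collagen crosslinks, was 396, 610.5 and 738 with saline against 903, 1228 and 1897 (1.10, SE 0.15, adjusted p = 4.75e-06). The 4-week median of Lox was 1201, and the 6-week level was above that of 10 weeks of recovery (median 642, direct difference 1.03, adjusted p = 0.00101). The related oxidases Loxl3 and Loxl1 rose by 0.86 and 0.71; Loxl3 overlaps Htra2 on the opposite strand.

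Small leucine-rich proteoglycans, which coat collagen fibrils, and elastic fibre genes had 6 of 22 members higher and none lower (median 0.37). Asporin (Aspn) was 438, 1152 and 1452 with saline and 2017, 2299.6 and 2877 in recovery (1.17, SE 0.22, adjusted p = 0.000539). Prelp was 824, 1476 and 1925 with saline against 2666, 2833 and 3528 (1.10, SE 0.22, adjusted p = 0.00093). The microfibril protein gene Mfap5 was 447, 500.4 and 622 with saline against 839.9, 930.3 and 1275 (0.94, SE 0.17, adjusted p = 0.000185). In these 3 genes every recovery mouse lay above every saline mouse and the direct difference over 4 weeks of bleomycin was called (0.92, 0.80 and 1.72). Omd, Bgn and Fmod rose by 0.88, 0.86 and 1.08. Aspn and Omd both overlap Cenpp on the opposite strand, and with the muscle covariate 1 member of this list was called.

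Matrix proteases and their inhibitors had 6 of 30 members higher and none lower (median 0.46). Serpine2, which encodes an inhibitor of thrombin and plasminogen activators, fell back from its 4-week median of 1645 but stayed above saline. It was 327, 409.8 and 511 with saline and 737, 865 and 1016 in recovery, without overlap (1.04, SE 0.11, adjusted p = 1.64e-08). Cathepsin K, encoded by Ctsk and able to cleave triple-helical collagen, was 1139.9, 1815 and 2115 with saline against 3172, 3608 and 4628 (1.16, SE 0.14, adjusted p = 1.75e-07), a level not called different from 4 weeks and above that of 10 weeks of recovery (0.90, adjusted p = 0.00132). Mmp3, Mmp2 and Mmp17 rose by 1.19, 0.94 and 0.79.

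Secreted regulators of WNT signalling moved in both directions: 5 of 24 rose and 3 fell (median 0.02), and with the muscle covariate 2 rose and none fell; edgeR and DESeq2 each called 5 lower. The secreted frizzled-related proteins bind WNT ligands outside the cell. Sfrp4 (chr13:19623104-19632994) was 121, 170 and 283 with saline and 595, 688 and 1014 in recovery (2.02, SE 0.32, adjusted p = 3.84e-05). Sfrp2 (chr3:83766321-83774316) was 64.1, 108 and 205 with saline against 292, 423 and 740.1 (1.99, SE 0.32, adjusted p = 4.37e-05). Both genes had been below saline during the injections, with 4-week medians of 34.0 and 55.4, so the direct differences of 6 weeks of recovery over 4 weeks of bleomycin were 4.62 (adjusted p = 7.16e-15) and 3.06 (adjusted p = 4.89e-10). Wnt2, a ligand, behaved alike at lower counts, with 21.8, 36.7 and 50.7 under saline, a 4-week median of 15.1 and 53.5, 74.6 and 119 in recovery (1.17, SE 0.28, adjusted p = 0.00592). Sfrp5 and Dkk3 rose by 1.31 and 0.73. The ligand Wnt5a fell, from 348, 509.5 and 1143 to 209, 270.5 and 475 (-0.87, SE 0.20, adjusted p = 0.00445), as did the enhancer of WNT signalling Rspo1 (-0.82) and Sfrp1 (-0.61).

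Of 35 TGF-beta, activin and BMP genes, 3 rose and none fell (median 0.10); without saline mouse 1 there was 1 rise and 1 fall, without recovery mouse 3 or 5 there was 1 rise, and with the muscle covariate 1 fall. The calls made up 8.57% of the list, near the 5.04% of all tested genes. The ligand gene Tgfb3 was 247, 395 and 419.8 with saline and 494, 608 and 702 in recovery (0.75, SE 0.16, adjusted p = 0.00218). The antagonists Fst (follistatin, 0.62) and Nog (noggin, 0.61) were close to the fold threshold and lost their calls without any of 3 and of 8 single mice. In the insulin-like growth factor axis 1 of 15 genes was called, a share of 6.67% that is also near that of all tested genes. Igfbp2, a binding protein of these factors, was 641, 933 and 1144 with saline and 1793, 2316 and 3396 in recovery (1.40, SE 0.17, adjusted p = 2.06e-07), above the 4-week level as well (0.75, adjusted p = 0.000876).

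Among called genes with a symbol whose groups did not overlap, Gm and Rik names left out, the largest rise was that of Cdkn2a (chr4:89274471-89294653). Its locus encodes the cell cycle inhibitor p16INK4a and the p53 regulator p19ARF. With saline the gene had 0, 1.25 and 4.74 normalized counts, with 3 mice at 0 and the median below the floor. In recovery it had 82.5, 113 and 194. The log2 fold change was 5.78 (SE 0.35) with an adjusted p of 7.13e-16; since the saline mice lie so low it depends on the pseudocount, and was 7.15 with a pseudocount of 0.1 and 6.19 with edgeR. The median was 19.8 at 4 weeks of bleomycin, and the 6-week level was higher by 2.57 (adjusted p = 3.53e-07). The median at 10 weeks of recovery was 92.5. The files hold 1 value for the gene, so transcripts that start at its different first exons, and thus the 2 proteins, cannot be told apart.

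Of 17 genes of cell cycle inhibition and senescence, 5 rose and 1 fell (median 0.17). The neighbouring inhibitor gene Cdkn2b (chr4:89306299-89311039) rose from 115, 126 and 162 to 184, 211 and 224 (0.65, SE 0.12, adjusted p = 0.000185). Gdf15, a stress-induced cytokine of the TGF-beta family, was 1.14, 3.13 and 5.71 with saline against 11.2, 13.6 and 21.2 (2.00, SE 0.27, adjusted p = 1.39e-06), down from a 4-week median of 66.5. Mmp3, given above, was among the other members that rose, and Lmnb1, a nuclear lamin, fell by 0.80 on the log2 scale, with values from 272 to 1514 among the saline mice and a call lost without any of 6 single mice. Cdkn1a, the p21 inhibitor and a p53 target, was picked after its values were seen: it was 2754, 3158 and 3918 with saline and 3921, 4114 and 4625 in recovery, without overlap, but its log2 fold change of 0.38 (SE 0.066) was under the threshold. Among 25 p53 target genes, 3 rose and none fell (median 0.12), and 15 had been called higher at 4 weeks of bleomycin. Besides Gdf15 these were Phlda3, at 782, 912 and 1130.5 with saline against 1362, 1376 and 1647 (0.64, SE 0.093, adjusted p = 8.28e-06), and Eda2r, at 38.2, 123 and 172 with saline against 179.9, 247 and 435 (1.30, SE 0.24, adjusted p = 0.000308).

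Islr2 (chr9:58196297-58204319), an immunoglobulin and leucine-rich repeat membrane protein known from axon growth, was likewise higher at 6 weeks of recovery than during the injections. It was 9.70, 29.6 and 49.1 with saline and 188, 285 and 426 in recovery (3.40, SE 0.33, adjusted p = 9.23e-10), with a 4-week median of 9.71, below saline. The direct difference over 4 weeks of bleomycin was 4.80 (adjusted p = 7.16e-15). Islr2 overlaps Islr on the same strand, so reads of the 2 genes may not be separated. Among 29 axon guidance genes, 4 rose and 1 fell (median 0.07), and with the muscle covariate 1 rose. The other calls were smaller, with Robo4 (a receptor of vessel endothelium), Sema3b and Slit1 higher by 0.72, 0.69 and 0.78 and Robo1 lower (-0.64, a call lost without any of 5 single mice).

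Type I interferon induces a set of antiviral genes through the transcription factor complex ISGF3. Of 39 such genes, 10 were still higher at 6 weeks of recovery and none was lower (median 0.35), where 38 had been called at 4 weeks of bleomycin. In the direct contrast 36 of the 39 were lower in recovery than at 4 weeks. Ifit1 (chr19:34640871-34650009) was 49.3, 84.8 and 124 with saline and 125, 172 and 208 in recovery (1.08, SE 0.17, adjusted p = 2.97e-05), against a 4-week median of 686. Ifit3 (chr19:34583531-34588731) was 94.2, 184 and 298 with saline against 285, 409 and 494 (1.09, SE 0.19, adjusted p = 0.000112). Usp18, which cleaves the ubiquitin-like protein ISG15 from its targets, was 51.3, 91.2 and 137 with saline against 126, 157 and 188 (0.81, SE 0.13, adjusted p = 7.36e-05), and Ifi44 16.0, 27.0 and 59.1 with saline against 48.9, 61.5 and 72.8 (1.17, SE 0.19, adjusted p = 7.62e-05). All 6 recovery mice exceeded all saline mice in Ifit1, and 5, 5 and 3 of them did in Ifit3, Usp18 and Ifi44. Isg15 rose by 0.77, and Rtp4, Bst2, Mx2, Oasl2 and Lgals3bp by 0.59 to 0.73. Saline mouse 1 had the lowest mean of this list, and 7 genes were called without it. Without recovery mouse 1 there were 5 calls, those of Isg15, Bst2, Mx2, Oasl2 and Lgals3bp being lost, and without recovery mouse 6 there were 6. Of 27 interferon-gamma-induced GTPases and MHC class I genes none was called by limma, edgeR or DESeq2 (median 0.23), 7 were higher at an unadjusted p below 0.05, and the largest differences were those of the chemokines Cxcl10 (0.62, adjusted p = 0.141) and Cxcl9 (0.53, adjusted p = 0.285).

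The sequences of 4 of the interferon-stimulated genes that stayed higher are shown because their promoters carry the letters GAAANNGAAA or the reverse complement, as in the element bound by ISGF3. They are stretches upstream of the start site taken from RefSeq (GRCm38.p6), written 5′ to 3′ on the strand of the gene, with the matching letters in capitals; matches that overlap each other run together in Bst2 and Isg15.
Ifit1, chr19:34640760-34640838, plus strand: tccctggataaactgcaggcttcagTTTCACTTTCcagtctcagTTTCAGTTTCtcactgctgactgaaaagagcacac
Ifit3, chr19:34583348-34583441, plus strand: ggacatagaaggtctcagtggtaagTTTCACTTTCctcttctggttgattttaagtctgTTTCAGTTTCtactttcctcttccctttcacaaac
Isg15, chr4:156200850-156200921, minus strand: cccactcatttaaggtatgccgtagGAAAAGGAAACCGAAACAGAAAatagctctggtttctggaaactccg
Bst2, chr8:71537562-71537627, minus strand: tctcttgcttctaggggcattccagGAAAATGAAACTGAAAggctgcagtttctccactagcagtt
The letters were found on either strand of the 250 bases before the start site in 936 of 27025 genes with a promoter entry (3.46%), or 978 of 32851 windows (2.98%), and in 10 of the 28 interferon-stimulated genes with an entry (35.7%). Of the members called at 6 weeks of recovery 4 of 7 with an entry held them, and of the tested members that were not called 6 of 20 did. A match describes these letters and does not show that a factor binds there.

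Resident macrophages of the dermis carry scavenger receptors and lectins, and this list had the most falls outside the mitotic genes: 10 of 21 were lower and none higher (median -0.72). Cd209f (chr8:4102787-4105835), a C-type lectin, was 313, 591 and 888 with saline and 42.5, 102 and 136 in recovery (-2.67, SE 0.22, adjusted p = 6.46e-12). Cd209g was 141, 274 and 399 with saline against 23.6, 38.9 and 65.6 (-2.68, SE 0.25, adjusted p = 1.34e-10). Cd209b and Cd209d had no overlap between the groups either, with log2 fold changes of -2.28 and -1.52. Cd209f and Cd209g were lower at 6 weeks of recovery than at 4 weeks of bleomycin (-0.76 and -0.80, adjusted p = 0.00951 and 0.0135) and lower than at 10 weeks of recovery (-1.47 and -1.43, adjusted p = 0.00101 and 0.0047). The Cd209 genes are close copies, and reads may be shared among them.

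The haemoglobin scavenger receptor Cd163 (chr6:124304656-124330527) fell from 478, 961 and 1828 to 215, 258 and 456 (-1.76, SE 0.25, adjusted p = 4.12e-06), and Timd4, a receptor for dying cells, from 11.9, 48.0 and 62.0 to 4.81, 9.07 and 12.8 (-2.02, SE 0.39, adjusted p = 0.00055). Folr2, Cd209c, F13a1 and Clec10a fell with log2 fold changes of -0.85 to -0.72. Not all markers of these cells followed: Mrc1, the mannose receptor, had a log2 fold change of -0.24 (SE 0.17, adjusted p = 0.388) and Lyve1 one of 0.32 (SE 0.23, adjusted p = 0.41), both named after their values were seen. The mean level of the list was 8.64 to 9.74 with saline and 8.17 to 8.74 in recovery, and 4 of 6 recovery mice lay below all saline mice. Leaving out saline mouse 1, which had the lowest level of its group, 11 members were called lower.

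Among genes of antigen-presenting cells, Siglech, a receptor of plasmacytoid dendritic cells, was 14.3, 37.7 and 70.9 with saline and 4.11, 8.91 and 13.8 in recovery, without overlap (-2.03, SE 0.33, adjusted p = 4.97e-05). Of 17 MHC class II and dendritic cell genes 2 fell and none rose (median 0.05). Xcr1, a chemokine receptor of conventional dendritic cells, was 19.1, 78.7 and 115 with saline against 29.8, 31.9 and 36.9 (-1.07, SE 0.27, adjusted p = 0.00821), its lowest saline mouse lying below all recovery mice. Flt3, a growth factor receptor of dendritic cell precursors, fell by 0.72 on the log2 scale with an adjusted p of 0.0485, and this call was lost when any of 13 single mice was left out. In contrast, 4 of 23 genes of inflammatory and lipid-handling macrophages rose and none fell (median 0.08): besides Ctsk and Spp1, these were the lipid-sensing receptor Trem2, at 24.5, 42.1 and 76.0 with saline against 71.8, 89.9 and 113 (1.06, SE 0.20, adjusted p = 0.00055), and the proton pump subunit Atp6v0d2 (1.09), which edgeR did not call. The call of Atp6v0d2 was also lost without any of 5 single mice. Trem2 had been far higher at 4 weeks of bleomycin, at a median of 359.

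Of 16 genes of B and plasma cells 4 rose, 1 fell and 11 were not called (median 0.59). Those that rose had a wide spread between mice. The joining chain gene Jchain was 3.42, 6.80 and 122 with saline and 71.5, 140 and 347 in recovery (3.57, SE 0.59, adjusted p = 7.36e-05). The IgA heavy chain constant gene Igha was 15.5, 41.5 and 397 with saline against 200.4, 494 and 932 (3.11, SE 0.55, adjusted p = 0.000204), and the kappa light chain gene Igkc 1.14, 15.2 and 174 with saline against 112, 224 and 487 (3.43, SE 0.64, adjusted p = 0.000451). In these genes 3 or 4 of the 6 recovery mice stood above all saline mice, and a saline mouse reached the recovery range. Outside the list, the lambda gene Iglv1 lay under the floor in every saline mouse and was 6.41, 19.9 and 27.7 in recovery. The lambda constant gene Iglc2 also rose (2.10). The gene that fell was Tnfrsf17, the plasma cell survival receptor BCMA, at 4.59, 10.6 and 28.6 with saline and 0.988, 4.46 and 7.70 in recovery (-1.51, SE 0.32, adjusted p = 0.00165). Immunoglobulin genes share sequence, so counts of single members are uncertain.

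Mast cell genes remained higher, with 6 of 12 called and none lower (median 0.67), and the mean level of the list stood above all saline mice in 6 of 6 recovery mice. Fcer1a (chr1:173221284-173227214), the IgE-binding chain of the high-affinity receptor, was 0, 7.17 and 13.3 with saline and 22.4, 25.2 and 33.7 in recovery (2.03, SE 0.35, adjusted p = 0.000148). The chymase gene Cma1 was 354, 521 and 724 with saline against 680.1, 809 and 987 (0.68, SE 0.14, adjusted p = 0.00156), and Ms4a2, another receptor chain, 19.1, 45.1 and 55.0 with saline against 59.1, 70.4 and 112 (0.83, SE 0.18, adjusted p = 0.00249). All 3 were below their 4-week levels (-1.94, -0.90 and -0.72, each called). Mcpt4, Mrgprb1 and Hdc rose by 0.67 to 0.71, and the call of Hdc was lost without any of 9 single mice. With the hair keratin level as a covariate 2 members were called, and with the muscle level 3.

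None of 23 T cell and NK cell genes was called by limma, edgeR or DESeq2 (median -0.05), and 2 had an unadjusted p below 0.05, the largest differences being those of Cd8a (-0.75, adjusted p = 0.276) and Klrb1c (-0.72, adjusted p = 0.21). Of 16 neutrophil and acute-phase genes, which had 11 members called higher at 4 weeks of bleomycin, 1 was called by limma: Retnlg was lower, at 0, 2.99 and 5.13 against 1.29, 12.0 and 48.9, and not called by edgeR or without any of 3 single mice. Of 28 chemokines 6 rose and 2 fell (median 0.14); edgeR and DESeq2 each called 3 higher and 2 lower. With the hair keratin covariate 1 rose, without saline mouse 1 or recovery mouse 1 there were 3 rises, and without recovery mouse 5 there were 2. Cx3cl1, a membrane-bound chemokine, rose from 149.6, 196 and 270.2 to 246, 328 and 384 (0.65, SE 0.12, adjusted p = 0.000558), and the monocyte attractant Ccl2 from 45.1, 106 and 161 to 119, 151 and 199.6 (0.69, SE 0.19, adjusted p = 0.0199), its 4-week median having been 574. Ccl27a and Ccl21a rose by 0.61 and 0.68, Cxcl1 and Cxcl11 rose at fewer than 20 normalized counts, and Cxcl13 and Ccl19 fell (-1.60 and -0.88). Ccl27a, Cxcl1, Cxcl11 and Cxcl13 were called by neither edgeR nor DESeq2, and Cxcl13 lost its call without any of 5 single mice. The call of Ccl19 was lost in 19 settings, among them another scaling (TMM or quantile) and the fits without any of 12 single mice. Ccl21a was the sole member called among 11 lymphatic endothelial genes (median 0.45), and its call was lost without saline mouse 1, which had the lowest mean of that list, and with the hair keratin or muscle covariate. The calls made up 9.09% of the lymphatic list and 6.25% of the neutrophil list, beside 5.04% of all tested genes.

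Of 22 complement genes 4 rose and 2 fell (median 0.19), and with the muscle covariate 2 rose. C2 was 217, 380.2 and 477 with saline and 596, 669 and 848 in recovery (0.92, SE 0.17, adjusted p = 0.000296), and C4b 1894, 3914 and 5301 with saline against 5683, 6138 and 6700.1 (0.81, SE 0.23, adjusted p = 0.0192). Cfb rose by 0.71 and Cfi by 1.56, the latter with 7 of 10 saline mice at 0. The terminal component gene C6 fell from 51.3, 67.2 and 117 to 13.8, 28.0 and 43.3 without overlap (-1.42, SE 0.30, adjusted p = 0.0017), and C3 fell by 0.74 on the log2 scale. The calls of Cfb and C3 were lost without any of 11 and of 7 single mice, and without recovery mouse 1 or 2 there were 2 rises in the list. Outside the list, Hc, which encodes complement C5, was among the largest rises: it was 0, 0.57 and 3.44 with saline, 5 of 10 mice at 0, and 17.5, 30.5 and 40.1 in recovery (4.12, SE 0.33, adjusted p = 2.52e-12), above the 4-week level as well (2.13, adjusted p = 3.09e-06).

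Schwann cells wrap the axons of skin nerves, and 12 of 23 of their genes rose while none fell (median 0.65). Mal, a membrane proteolipid, was 59.6, 107 and 148 with saline against 167, 217 and 284 (1.08, SE 0.16, adjusted p = 1.45e-05), S100b 47.7, 69.9 and 92.7 with saline against 102, 144 and 162 (0.92, SE 0.14, adjusted p = 3.05e-05), and Mbp 569, 1136 and 1577 with saline against 1522, 2160.2 and 2548 (0.86, SE 0.15, adjusted p = 0.000203). In Mal and S100b the groups did not overlap. The growth cone protein gene Gap43 rose from 5.72, 8.21 and 18.2 to 18.4, 28.6 and 52.3 (1.61, SE 0.30, adjusted p = 0.000355), and Sox10, the transcription factor of this lineage, from 84.5, 155 and 169 to 208, 298 and 343 (0.93, SE 0.17, adjusted p = 0.000451). Gfra3, Cdh19, Prx, Artn and Scn7a rose by 0.65 to 1.02. The calls of Artn and Scn7a were lost with each of the 3 covariates. That of Artn was also lost without any of 5 single mice, and that of Scn7a without saline mouse 1. None of the 12 was called against 4 weeks of bleomycin in the direct contrast. Saline mouse 1 had the lowest mean of the list, and 10 members were called without it; with the muscle covariate 5 were.

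**Figure D3:**
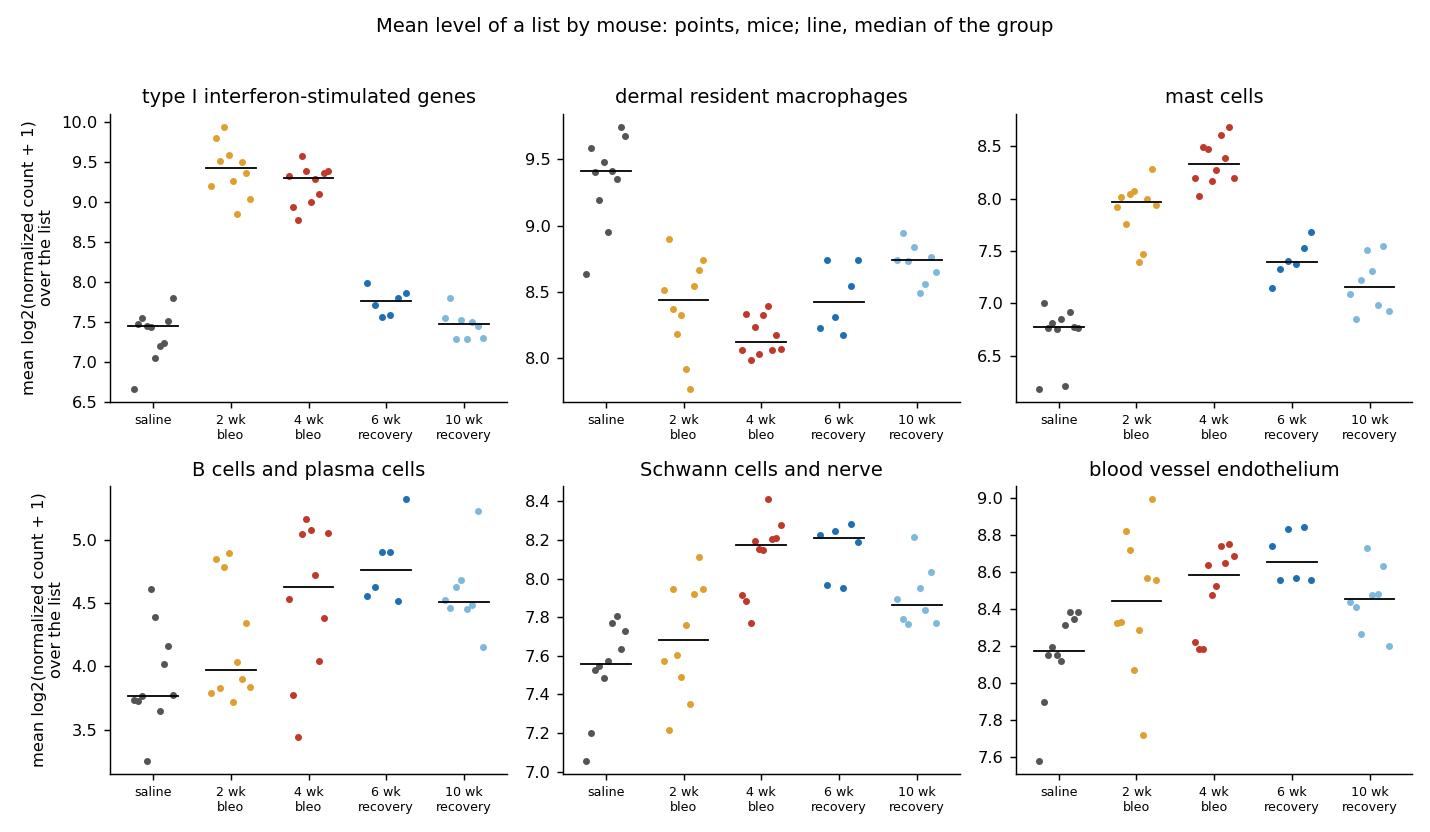
Mean log2(normalized count + 1) over the tested members of 6 lists in each of the 44 mice, by group; points are mice and lines are group medians. At 6 weeks of recovery all 6 mice lie above all saline mice for mast cell, Schwann cell and endothelial genes, 4 of 6 lie below them for resident macrophage genes, and interferon-stimulated genes have a median of 7.75 against 7.44 with saline and 9.30 at 4 weeks of bleomycin.

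Endothelial genes of blood vessels rose in 9 of 24 cases and fell in none (median 0.55). Emcn (chr3:137341067-137432185), a sialoglycoprotein of capillaries and veins, was 78.7, 100.1 and 158 with saline and 147, 169 and 266 in recovery (0.81, SE 0.12, adjusted p = 2.41e-05). Cd93 was 229, 367 and 464 with saline against 506, 621 and 733 (0.82, SE 0.14, adjusted p = 0.000122), Egfl7 357, 424 and 500 with saline against 564, 614 and 751 (0.61, SE 0.12, adjusted p = 0.00104), and the adhesion molecule gene Pecam1 459, 772 and 904 with saline against 1025, 1189 and 1329.9 (0.67, SE 0.15, adjusted p = 0.00309). Esam, Cdh5, Aplnr, Robo4 and Cldn5 rose by 0.72 to 0.98. Aplnr, the apelin receptor, and the tight junction gene Cldn5 were higher than at 4 weeks of bleomycin (1.18 and 0.65), and the others were not called against it. With the muscle covariate 3 members were called. From the adhesion and migration genes that the study named with collagen bundle alignment, 5 were listed here (Emcn, Esam, Robo4, Gfra3 and Sparcl1), and these 5 were called higher, by 0.72 to 1.01; they were chosen on these same mice, so this is not independent evidence of their direction, and 1 was called with the muscle covariate. Of 14 contractile genes listed for smooth muscle and myofibroblasts, Synpo2 and Des rose (0.79 and 0.70) and 12 were not called (median 0.31). Neither of the 2 was called with a muscle covariate, and Des is also in the fast-twitch list. The biopsies held striated muscle, so these rises cannot be placed in smooth muscle. Acta2, which marks myofibroblasts and was picked after its values were seen, had a log2 fold change of 0.31 (SE 0.17) with an adjusted p of 0.23.

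Muscle genes rose mainly in the slow-twitch list, where 12 of 15 were higher (median 1.49) against 3 of 22 in the fast-twitch list (median 0.25), with no falls in either. Slow-twitch fibres are oxidative and fatigue-resistant, and the panniculus muscle below mouse back skin is mostly of the fast kind. The slow cardiac-type troponin gene Tnnc1 (chr14:31208312-31211729) was 0, 10.2 and 37.6 with saline and 59.7, 172 and 314 in recovery (4.37, SE 0.65, adjusted p = 1.3e-05); it overlaps Nisch on the opposite strand. Tnnt1 was 30.3, 81.4 and 163 with saline against 223, 425 and 876 (2.70, SE 0.42, adjusted p = 2.8e-05), and the slow myosin heavy chain gene Myh7 0.939, 18.3 and 206 with saline against 183, 576 and 801 (4.90, SE 0.95, adjusted p = 0.000706). In Tnnc1 and Tnnt1 every recovery mouse exceeded every saline mouse, and 5 of 6 did in Myh7. Myoglobin, Mb, the oxygen store of these fibres, was 1543, 3271 and 5651 with saline against 5995, 9906 and 14409 (1.57, SE 0.22, adjusted p = 2.98e-06). Myl3, Myl2, Tnni1, Csrp3, Ankrd2, Myoz2, Fhl1 and Casq2 rose by 0.86 to 3.27, and the fast-twitch list's calls were Myh1 (1.14), Ttn (0.87) and Des (0.70); without recovery mouse 5 only 1 of the 3 was called. The mean slow-twitch level was 6.27 to 7.85 over the saline mice and 7.90 to 9.58 over the recovery mice, without overlap, and 12 members were called when the fast-twitch level of each mouse was a covariate, a fit added after the data were seen. With the mean of both muscle lists as the covariate, which includes the slow-twitch genes themselves, 2 were called.

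Of 18 genes of muscle regeneration and denervation, 8 were higher and 1 lower (median 0.73). With the muscle covariate 1 was higher (median -0.04) and with the hair keratin covariate 4 were. Without recovery mouse 5 there were 4 rises and no fall, and without saline mouse 1 or recovery mouse 1 or 3 there were 5 rises. Myog, a myogenic transcription factor, was 11.9, 25.9 and 57.9 with saline and 77.0, 137 and 223 in recovery (2.18, SE 0.32, adjusted p = 1.3e-05), and Chrna1, an acetylcholine receptor subunit, 29.8, 49.5 and 65.2 with saline against 67.4, 88.3 and 138 (0.93, SE 0.19, adjusted p = 0.00105). Both were below their 4-week medians of 228 and 466. Ankrd1, a stress-induced muscle ankyrin repeat protein outside the list, was 5.15, 29.8 and 79.6 with saline against 164, 309 and 434 (3.53, SE 0.37, adjusted p = 5.86e-09). Myf6, Sln, Myod1, Cdh15, Chrnd and Myh8 rose by 0.77 to 1.22; the growth inhibitor Mstn fell (-1.26, adjusted p = 0.0194). The calls of Myh8, Chrnd and Cdh15 were lost without any of 13, of 8 and of 5 single mice.

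**Figure D4:**
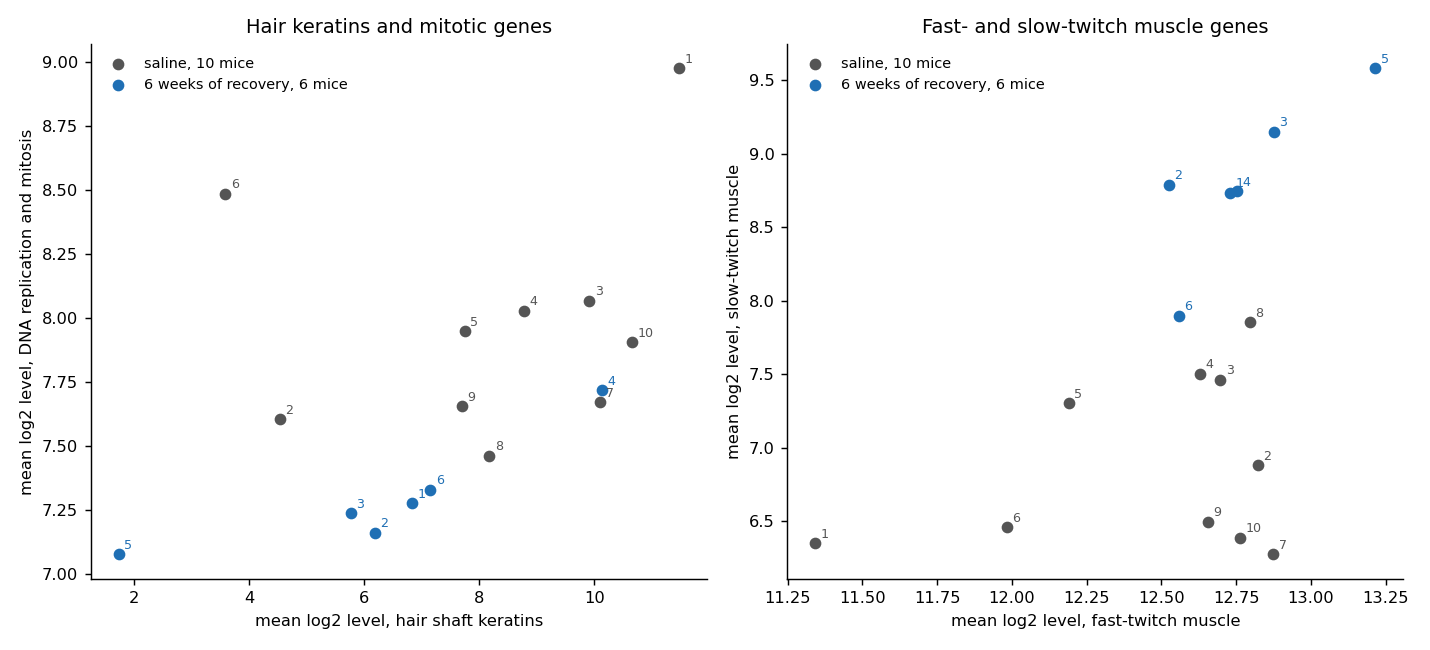
Mean log2(normalized count + 1) over list members in each saline mouse (grey, 10 mice) and each mouse at 6 weeks of recovery (blue, 6 mice), numbered by replicate: hair shaft keratins against DNA replication and mitosis genes on the left, fast-twitch against slow-twitch muscle genes on the right. Recovery mice overlap the saline mice in hair keratins, and mice 3 and 5 lie above them in fast-twitch level, while 5 of 6 lie below all saline mice in mitotic genes and all 6 lie above them in slow-twitch genes.

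Hair follicles cycle between growth and rest, and keratins of the shaft and inner root sheath are made in growing follicles. None of 14 shaft genes and none of 10 inner root sheath genes was called by limma, edgeR or DESeq2, although the medians were -2.04 and -1.998; at an unadjusted p below 0.05, 2 shaft genes were lower and no root sheath gene was. Krt35 was 48.0, 1491 and 9996 with saline and 5.13, 189 and 2445 in recovery (log2 fold change -2.58, SE 1.10, adjusted p = 0.131), and each group spread over more than that difference. Krt81, Krt25 and Krt71 had log2 fold changes of -2.54, -2.65 and -2.32. In the skin of mice under bleomycin these genes were low, with a 4-week median of 2.97 for Krt35, and 10 of the 14 were higher at 6 weeks of recovery in the direct contrast. Of 23 regulators of follicle growth, Sox2 rose (1.09) and Shh and Ovol1 fell (-2.28 and -0.60), and none of the 3 was called with the hair keratin or muscle covariate. The falls in this list depended on the tool and on single mice: edgeR called 3 lower and DESeq2 7, limma called none without saline mouse 1 or any of recovery mice 1, 3, 5 and 6, and it called 6 without recovery mouse 4 and 7 without saline mouse 2. Of 13 melanocyte genes, Sox10 rose, as above, and Mc1r, the melanocortin receptor, fell, at 5.71, 34.8 and 221 with saline and 0.73, 5.86 and 24.7 in recovery (median of the list -1.16); edgeR called 4 lower and DESeq2 8, and limma called between 0 and 4 with 1 mouse left out, Mc1r being lost without any of 7.

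Genes of DNA replication and mitosis were lower: 17 of 29 fell, none rose and all 29 log2 fold changes were below 0 (median -0.75). Top2a, a topoisomerase, was 597, 931 and 2368 with saline and 383, 505 and 725 in recovery (-0.98, SE 0.21, adjusted p = 0.00188). Ccnb1, a mitotic cyclin, was 279, 369 and 822 with saline against 167, 217 and 319.7 (-0.93, SE 0.22, adjusted p = 0.00475), and Rrm2, a subunit of ribonucleotide reductase, 267, 360.1 and 734 with saline against 156, 206 and 328 (-0.80, SE 0.18, adjusted p = 0.00399). In these genes 5 of 6 recovery mice lay below all saline mice, and none of the 29 was called against 4 weeks of bleomycin in the direct contrast. The other falls, of Mcm5, Cdc6, Ccna2, Ccnb2, Cdk1, Bub1b, Aurka, Aurkb, Plk1, Birc5, Cenpe, Kif11, Kif20a and Nusap1, had log2 fold changes of -0.95 to -0.60. The calls of Aurka, Cdk1 and Cenpe were lost without any of 9, of 8 and of 4 single mice, and that of Aurka also with TMM or quantile scaling. Recovery mouse 4, with the highest hair keratins of its group, had the list mean within the saline range (7.72). Recovery mice 5, 3, 2, 1, 6 and 4 are in order of rising hair keratin mean (1.74 to 10.1). Their mitotic means in that order were 7.07, 7.24, 7.16, 7.27, 7.33 and 7.72. Among the saline mice the hair keratin and mitotic levels did not always go together. Mouse 1 was the highest in hair keratins and in mitotic genes (11.5 and 8.98). Mouse 6 had the lowest hair keratins (3.59) with a mitotic mean of 8.49, and mouse 7 had 10.1 and 7.67. The count of falls changed with hair and muscle level in the fit: 7 were called with the hair keratin covariate, none with the muscle covariate, 8 with the fast-twitch covariate and 7 without recovery mouse 5. The part of follicle growth in this difference was not tested further.

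Among fibroblast markers 1 of 20 rose and 2 fell (median -0.03). Pdgfra (chr5:75152292-75198215), the PDGF receptor of dermal fibroblasts, was 856, 1425 and 1481 with saline and 516, 658 and 690 in recovery, without overlap (-1.02, SE 0.14, adjusted p = 3.54e-06). Its difference from 4 weeks of bleomycin was 0.06 (SE 0.14, adjusted p = 0.802). Inmt (chr6:55170626-55175043), a methyltransferase gene, had the largest fall of the called genes with a symbol whose groups did not overlap, Gm and Rik names left out. It was 61.8, 124 and 341 with saline and 6.92, 10.5 and 30.5 in recovery (-3.17, SE 0.52, adjusted p = 6.49e-05). Crabp1 rose (0.77), a call lost without any of 3 single mice. Other markers were not called, among them Pi16, Cd34 and Dpp4, named after their values were seen, with log2 fold changes of -0.018, -0.033 and -0.29. Outside the list, the secreted protein gene Myoc (myocilin) was 373, 822 and 1181 with saline against 129.5, 296 and 347 (-1.53, SE 0.22, adjusted p = 8.28e-06), and the aldehyde oxidase gene Aox3 19.4, 39.4 and 57.2 with saline against 7.30, 8.94 and 17.6 (-1.81, SE 0.35, adjusted p = 0.00055).

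Several groups of genes had no called member at 6 weeks of recovery. None of the 15 sebaceous gland genes, 19 adipocyte genes, 25 epidermal keratin and cornified envelope genes, 18 clock genes, 18 immediate-early and heat-shock genes or 7 red blood cell genes was called by limma, with 2, 2, 7, 5, 4 and 1 members at an unadjusted p below 0.05; edgeR and DESeq2 each called 1 epidermal gene lower and no other, and limma called up to 3 epidermal genes lower with 1 mouse left out. At 4 weeks of bleomycin 11 of the sebaceous gland genes and 8 of the adipocyte genes had been lower. The lipoprotein lipase gene Lpl kept a smaller difference, at 5628, 6666 and 8207 with saline and 3976, 4748 and 5436 in recovery, without overlap, but its log2 fold change of -0.47 (SE 0.11) was under the threshold with an adjusted p of 0.00403. The sterol acyltransferase gene Soat1 had a log2 fold change of -0.36 (SE 0.11). Among the members furthest from 0 in these lists, the log2 fold change was -0.37 for the fatty acid elongase Elovl3, -0.43 for leptin (Lep), -1.77 for desmoplakin (Dsp), -1.70 for the transglutaminase Tgm3 and 0.43 for the clock output gene Dbp. It was 1.10 for Fosb and 0.61 for Atf3, both immediate-early factors, and -1.20 for the red cell anion exchanger Slc4a1. The epidermal list mean was 10.55 to 10.88 with saline and 9.50 to 10.80 in recovery, 5 of 6 recovery mice lying below all saline mice. In the respiratory chain 2 of 29 genes rose, the muscle subunits Cox6a2 and Cox8b (0.68 and 0.65), and neither was called with any of the 3 covariates or without saline mouse 1 or recovery mouse 5. Blmh, which encodes the hydrolase that inactivates bleomycin, fell from 1421, 1925 and 2715 to 1088, 1278 and 1576 (-0.64, SE 0.15, adjusted p = 0.00388), and Cyp2e1 rose (1.06) among 26 oxidative stress and xenobiotic genes. Blmh was called with neither muscle covariate, and Cyp2e1 with none of the 3 covariates nor without any of 7 single mice. The calls made up 6.9% of the respiratory chain list and 7.69% of the xenobiotic list, near the 5.04% of all tested genes.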

How the data were processed

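Back skin RNA of 44 mice was prepared with a stranded mRNA kit and sequenced by the authors, whose processing notes name STAR 2.4.0, DESeq2 1.12.3 and mm10; how reads were counted, with which annotation and whether by strand, is not given in the sources used here. The deposited signal is a table of normalized counts, 1 column per mouse, in which reads per gene were divided by a size factor by the authors. All values of every mouse were whole multiples of 1 read (tolerance 0.01 reads), so reads were recovered for edgeR and DESeq2.

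The 6 mice with 6 weeks of recovery and the 10 saline mice were grouped by their labels, and each is a separate animal. Genes with a mean above 3 over the 44 mice (17037 of 43411 rows) were tested on log2(normalized count + 1) with limma 3.58.1 in 1 fit of 5 groups with a mean-variance trend (R 4.3.3), with Benjamini-Hochberg adjusted p below 0.05 and fold change above 1.5. Symbols came from a gene name table for 42929 rows. Alternatives were edgeR 4.0.16, DESeq2 1.42.0, other scalings, filters, pseudocounts and covariates, a replicate block and single mice left out. Members and lists were chosen with earlier results of these data known. Named genes were the 10 largest non-overlapping rises and falls among called genes with a symbol, the 5 smallest adjusted p, the called members of each list, of which 4 got values by group, and the 2 members furthest from 0 where none was called. Symbols that start with Gm or end with Rik were left out of the ranked rises and falls. Some further genes were picked after their values were seen and are marked as such; a few genes counted in the lists are not reported here by name. On simulated reads for this comparison, limma, edgeR and DESeq2 recovered 97.5%, 97% and 98% of 200 genes changed by 2 on the log2 scale, and called 8, 5 and 6 of the unchanged genes among 17037. The changed genes were drawn only from those well above the floor, and no shared variation in hair or muscle was simulated. The shares therefore do not cover smaller changes or genes with few reads. Figures were drawn with matplotlib 3.10.9. Counting intervals and floors cover counting error only.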

Additional observations from a re-analysis of the deposited data

Results flagged for a closer look

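For single genes and list means, the 10 saline and the 6 recovery values were each searched for a mouse far from the others. The measure was Dixon's ratio, the gap to the nearest mouse divided by the range of the group. Of 134 groups searched, a mouse stood out in 13, and chance gives about 1 in 20. The same mice recur across these groups, so the groups are not independent. Saline mouse 1 was the lowest of its group in Ccn3 (ratio 0.513) and in the mean level of 7 lists: small leucine-rich proteoglycans and elastic fibres (0.494), interferon-gamma GTPases and MHC class I (0.471), MHC class II (0.703), sebaceous gland (0.585), adipocytes (0.571), lymphatic endothelium (0.564) and fibroblasts (0.542). Among the mice at 6 weeks of recovery, mouse 2 was the highest in Aox3 (0.738, log2 level 4.22 against 3.36 in the next mouse) and the lowest in the senescence list (0.63), though at 7.91 still above all saline mice. Mouse 4 was the lowest in Myoc (0.735) and the highest in melanocyte genes (0.641), at 7.29 against 5.75. Mouse 5 was the highest in respiratory chain genes (0.797), at 11.1 against 10.8.

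Of the named genes, 6 differed between 6 and 10 weeks of recovery in the direct limma contrast. Cthrc1, Lox, Mmp3 and Ctsk were higher at 6 weeks, by 1.743, 1.028, 0.921 and 0.897 on the log2 scale, with adjusted p from 0.00101 to 0.0104. Cd209f and Cd209g were lower, with log2 differences of -1.466 and -1.426.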

How the results depend on the processing

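The fewest calls came with the muscle level as a covariate: 238 genes (136 higher, 102 lower) were called, against 560 (177 lower) with the hair keratin level. With no fold change threshold 1547 were called (851 higher, 696 lower), and DESeq2 called 453 lower. Leaving out 1 recovery mouse gave 504 to 1037 calls (354 to 600 higher, 150 to 437 lower), the lowest without mouse 5, and leaving out 1 saline mouse gave 661 to 977 (431 to 616 higher, 230 to 361 lower), the lowest total without mouse 1. With a replicate block 1129 genes were called (759 higher, 370 lower), but same-numbered mice did not deviate together (correlations -0.034 to 0.14), so the numbers do not pair the mice. Fhl1 and Myh8 reversed with the muscle covariate, to -0.027 and -0.073. The cause was not tested; the covariate holds muscle genes by construction. Of 187 named genes called, 59 were called under every one of the 32 settings that gave a value for them, and 67 lost the call without at least 1 single mouse. Genes near the floor of 3 reads carry fold changes that depend on the pseudocount.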
